A study of Sus scrofa with 18 samples.

Results

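Voltage-gated sodium channel subunits were followed in the fetal pig brain through 8 listed genes, 5 of them alpha subunits (SCN1A, SCN2A, SCN3A, SCN8A and SCN9A) and 3 of them beta subunits (SCN2B, SCN3B and SCN4B). Members were taken by gene symbol from the gene-wise table of 31908 genes. A row of that name was found for 7 of the 8, and 6 of the 8 passed the filter on low counts. SCN3B held 1 count over all libraries, and no row was named SCN4B. An unnamed gene, ENSSSCG00000029199, lies where RefSeq places SCN4B on Sscrofa11.1, with 83.52% of its 5466 exonic bases inside RefSeq SCN4B exons, and it is described below as the unnamed gene at SCN4B without being counted among the 6.

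Poly(A)-selected RNA of whole fetal brain was sequenced in paired reads to compare female and male fetuses at gestation day (GD) 45, GD60 and GD90. Landrace × Large White gilts had been inseminated with semen of the LR-M6 line, and no group received a treatment. Each of the 6 groups of day and sex held 3 fetuses (female GD45, male GD45, female GD60, male GD60, female GD90 and male GD90), so that each day had 6 libraries and the series 18. The labels give litter sizes but name no dams. Fetuses of the same day and litter size were taken as littermates, which gives 1 female and 1 male from each of 9 inferred litters. On that inference the 6 fetuses of a day came from 3 dams.

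A sodium channel is built around 1 large alpha subunit, which forms the pore and carries the voltage sensor, and beta subunits that tune its gating and tie it to the cell surface and to neighboring cells. In neurons these channels crowd at the axon initial segment and, once axons are myelinated, at the nodes of Ranvier, where they start and renew the action potential. SCN3A is known as an alpha subunit of the embryonic brain, SCN2A as that of young and unmyelinated axons, and SCN8A as that of mature initial segments and nodes. SCN1A is best known from fast-spiking inhibitory neurons, and SCN9A from pain-sensing neurons outside the brain.

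Library totals lay between 15118843 and 19729783 counts, with a median of 16413097, and levels are given as CPM, the counts of a gene scaled to a common library total. The 7 neuron markers (RBFOX3, SYP, SNAP25, MAP2, TUBB3, STMN2 and NEFL) summed to between 6661 and 10030 CPM in every library, and the 5 skeletal muscle markers to between 4.15 and 22.9 CPM. The 3 HOX genes of hindbrain and spinal cord (HOXA5, HOXB5 and HOXD3) summed to between 0 and 56.3 CPM at GD45 and to at most 1.01 CPM at GD60 and GD90, and the part of this difference in the results was not tested. The library of male GD45 replicate 17 stood apart. Its normalization factor was 0.849 against 0.943 to 1.07 in the other libraries, and its reads lay more toward the 3′ end of transcripts: over 2398 long genes of many exons, the median share of a gene's exon counts in the last exon was 26.1% in this library and 14.1% to 22.55% in the others. By the labels, the brains of this fetus and of female GD45 replicate 18 were the lightest of the series. The part of brain weight in the values was not tested. The changes of each subunit from GD45 to GD90 are given with and without the library of male GD45 replicate 17.

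SCN2A rose at both steps of gestation and had the most counts per kilobase of the alpha subunits at GD90. The gene lies on chromosome 15 at 71864739-71999212 on the + strand. Its level was 26.0, 54.6 and 60.2 CPM (lowest, median and highest of 6 libraries) at GD45, 59.8, 99.2 and 117 CPM at GD60 and 134, 183 and 279 CPM at GD90. All 6 GD90 libraries were above every earlier library, while the GD45 and GD60 ranges overlapped slightly. The mean was 50.7 ± 12.9 CPM (SD, n = 6) at GD45, 89.6 ± 23.5 at GD60 and 199 ± 54.6 at GD90. From GD45 to GD90 SCN2A rose 3.99-fold, a log2 fold change of 2.00 ± 0.16 (SE) with an adjusted p of 1.6e-08 in edgeR's quasi-likelihood test over all 16325 genes tested. It rose 1.75-fold from GD45 to GD60 (adjusted p = 0.0015) and 2.28-fold from GD60 to GD90 (adjusted p = 1.2e-05). Without male GD45 replicate 17 the log2 fold change from GD45 to GD90 was 1.87 (adjusted p = 1.9e-09).

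SCN3A, the embryonic subunit, rose between GD45 and GD60 and then showed no further difference in the mean of both sexes. It lies next to SCN2A on chromosome 15, at 71717334-71824160 on the − strand. Its level was 39.2, 82.3 and 86.2 CPM (lowest, median and highest) at GD45, 77.7, 101.3 and 137 CPM at GD60 and 63.9, 102.0 and 140 CPM at GD90. The ranges of the 3 days overlapped, and the lowest value at GD45 was that of male replicate 17. The log2 fold change was 0.49 ± 0.14 from GD45 to GD60 (adjusted p = 0.020) and 0.01 ± 0.13 from GD60 to GD90 (adjusted p = 0.94). The first of these calls was lost without female GD45 replicate 12 (adjusted p = 0.0502), without female GD60 replicate 3 (adjusted p = 0.0531) or without male GD60 replicate 4 (adjusted p = 0.0507), and it held without male GD45 replicate 17 at a log2 fold change of 0.36 (adjusted p = 0.021). From GD45 to GD90 SCN3A rose 1.41-fold (adjusted p = 0.0047), and without that library its log2 fold change was 0.38 (adjusted p = 0.0052). The gene shares 234 of its 8582 exonic bases with an unnamed gene on the other strand.

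SCN8A, the subunit of mature initial segments and nodes, rose 5.19-fold from GD45 to GD90, with wide ranges within each day. It lies on chromosome 5 at 16977700-17169564 on the + strand. Its level was 2.11, 10.5 and 17.4 CPM (lowest, median and highest) at GD45, 8.41, 14.6 and 33.2 CPM at GD60 and 14.01, 57.9 and 102.1 CPM at GD90. At GD90 the females measured 14.01, 52.4 and 23.1 CPM and the males 63.5, 80.6 and 102.1 CPM, so that the lowest female lay within the GD45 range. The log2 fold change from GD45 to GD90 was 2.37 ± 0.42 (adjusted p = 0.00015), and that from GD60 to GD90 was 1.53 ± 0.41 (adjusted p = 0.0062). From GD45 to GD60 it was 0.84 ± 0.41 (adjusted p = 0.18). With the last-exon share of each library as a covariate, an alternative added after the data were seen, the change from GD45 to GD90 was 1.49 on the log2 scale (adjusted p = 4.3e-05). The fit without male GD45 replicate 17, and with no covariate, gave 2.14 (adjusted p = 8.0e-05).

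SCN1A rose 1.77-fold from GD45 to GD90, with a call at the first step and none at the second when all libraries were fitted. The steps were not tested against each other. It lies on chromosome 15 at 72529875-72678067 on the − strand. Its level was 19.9, 32.5 and 42.5 CPM (lowest, median and highest) at GD45, 36.1, 46.01 and 58.1 CPM at GD60 and 36.2, 54.5 and 79.8 CPM at GD90, with overlap between all days. The log2 fold change was 0.54 ± 0.14 from GD45 to GD60 (adjusted p = 0.011), 0.28 ± 0.13 from GD60 to GD90 (adjusted p = 0.10) and 0.82 ± 0.14 from GD45 to GD90 (adjusted p = 7.1e-05). Without male GD45 replicate 17 they were 0.45 (adjusted p = 0.017), 0.28 (adjusted p = 0.0496, past the threshold) and 0.73 (adjusted p = 8.1e-05).

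SCN9A did not pass the test for any pair of days in the mean of both sexes. It lies beyond SCN1A on chromosome 15, at 72748692-72912407 on the − strand. Its level was 4.02, 8.68 and 11.5 CPM (lowest, median and highest) at GD45, 2.35, 8.89 and 19.5 CPM at GD60 and 6.41, 12.2 and 23.1 CPM at GD90. The log2 fold change from GD45 to GD90 was 0.69 ± 0.33 with an adjusted p of 0.086, which fell to 0.034 when only the groups compared entered the fit and rose to 0.70, at a log2 fold change of 0.14, with the last-exon share as a covariate. Without male GD45 replicate 17 the log2 fold change was 0.54 (adjusted p = 0.17), and with the counts outside the last exon it was 0.84 (adjusted p = 0.032). The 6 sensory ganglion markers summed to between 22.4 and 54.9 CPM at GD45 and between 8.74 and 11.08 CPM at GD90, and all 4 that were tested fell. Their part in the SCN9A values was not tested.

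**Figure D1:**
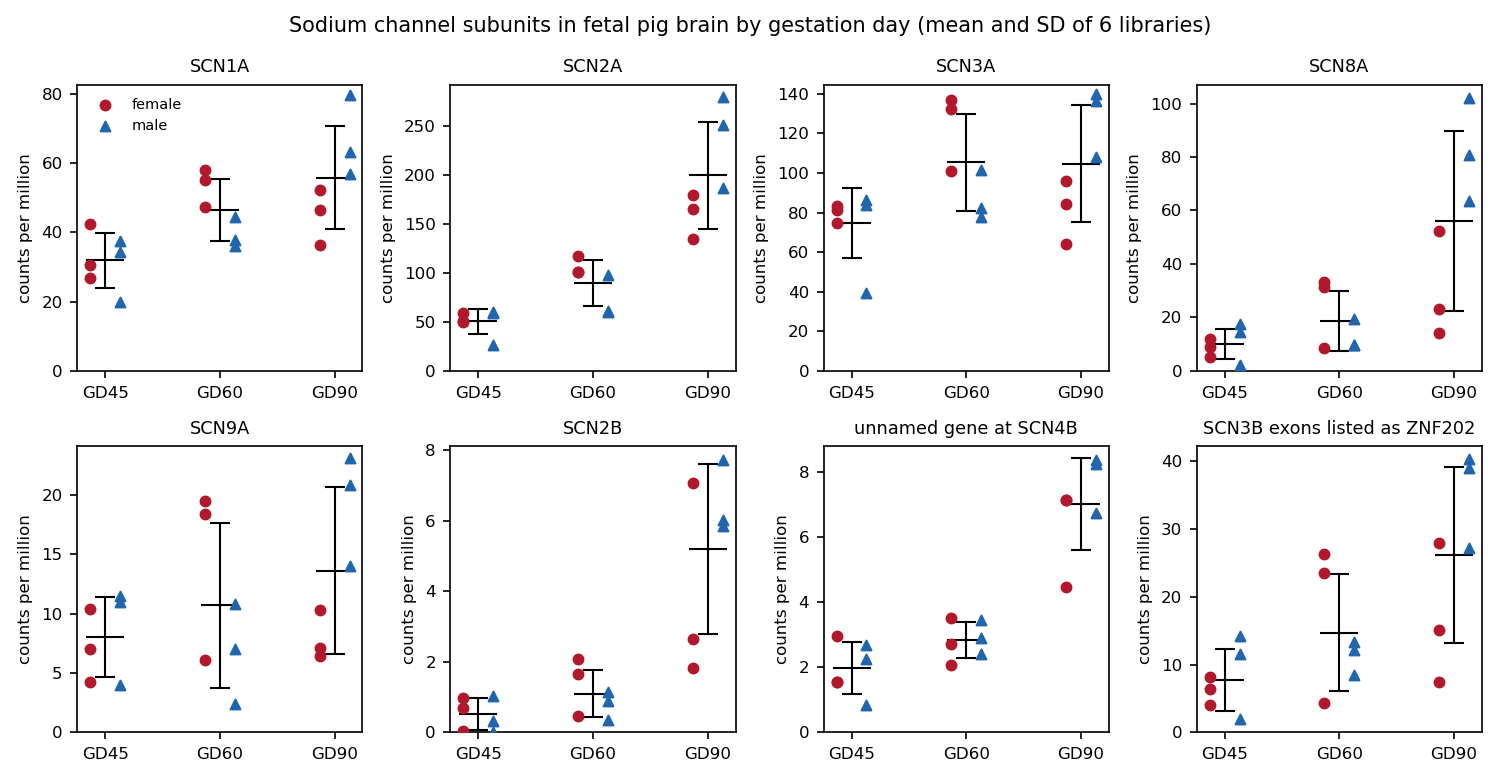
CPM (vertical axis of each panel, linear and starting at 0) of the sodium channel subunits by gestation day, with 1 point per library, circles for females and triangles for males. The long horizontal bar is the mean and the short bars mark 1 SD above and below it over 6 libraries. SCN2A at GD90 lies above all earlier libraries, whereas SCN3A overlaps between all days.

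Over the 6 members tested, 3 rose from GD45 to GD60 (SCN1A, SCN2A and SCN3A), 3 rose from GD60 to GD90 (SCN2A, SCN8A and SCN2B) and 5 rose from GD45 to GD90 (all but SCN9A). No member fell in these 3 comparisons. Of all genes tested, 16.7%, 42.4% and 57.5% were called in the same 3 comparisons, and 9.35%, 21.4% and 28.3% were called higher. The median log2 fold change of the 6 members from GD45 to GD90 was 1.41, beside −0.03 over all genes. The comparisons share libraries (GD60 in both steps), so that they are not independent of each other. In these bulk samples, fewer cells of a type and less RNA per cell cannot be told apart. The summed neuron markers had medians of 7440, 8299 and 9039 CPM at GD45, GD60 and GD90, and the summed alpha subunits means of 175, 271 and 429 CPM. Their ratio, the alpha subunit sum as a percent of the neuron marker sum, had medians of 2.61%, 3.17% and 4.65%, with ranges of 1.201 to 3.07% at GD45 and 2.54 to 7.25% at GD90 that overlapped. TUBB3 and STMN2 were the largest parts of the neuron marker sum (means of 4199 and 2067 CPM at GD45, 3404 and 2969 CPM at GD90). From GD45 to GD90 RBFOX3 rose 2.64-fold, SYP 2.75-fold, SNAP25 2.48-fold, NEFL 2.68-fold and STMN2 1.47-fold, while MAP2 and TUBB3 were not called. The ratio thus depends on which markers are summed.

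**Figure D2:**
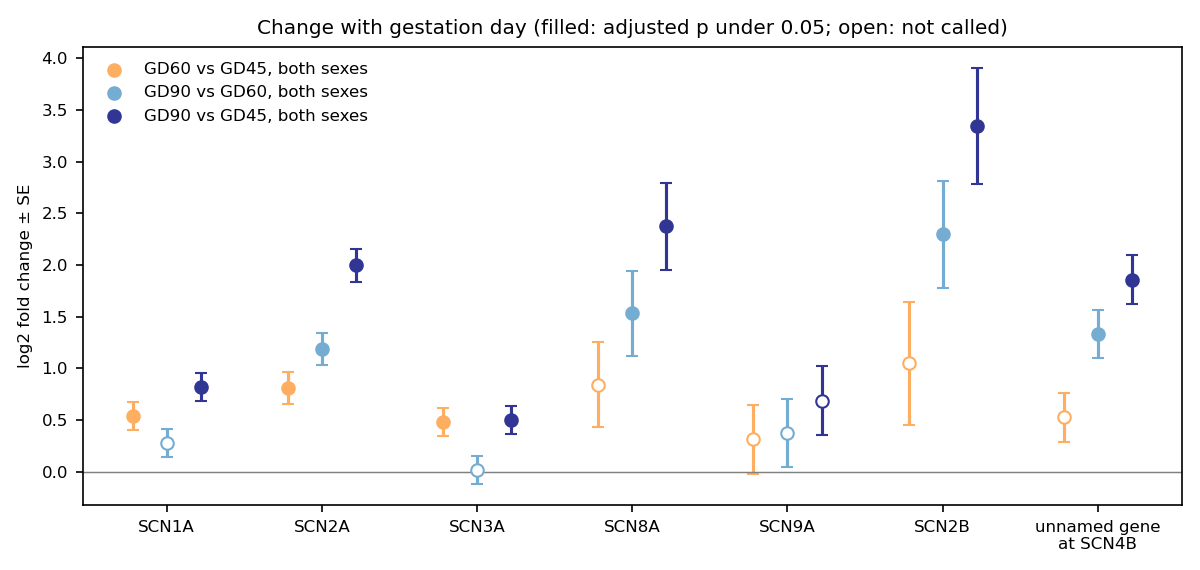
Log2 fold change (vertical axis) of each tested subunit in 3 comparisons of gestation days in both sexes, with bars of 1 SE from edgeR's fit over 18 libraries. Filled points passed an adjusted p of 0.05 and open points did not. SCN2B and SCN8A have the longest bars, and SCN3A lies near 0 from GD60 to GD90.

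SCN3A had the largest share of the alpha subunit counts at GD45 and GD60 and SCN2A at GD90 in the gene table, given here as a description with no test. In the exon table, which holds no counts of the last exon of SCN3A, SCN2A had the largest share at each day (48.3%, 49.7% and 58.6%), and SCN3A had 9.26%, 11.7% and 8.70%. As shares of the summed CPM of the 5 alpha subunits, SCN3A made up 42.8 ± 2.8% (SD, n = 6) at GD45, 39.2 ± 2.1% at GD60 and 24.6 ± 1.2% at GD90. SCN2A made up 28.9 ± 1.1%, 33.1 ± 2.7% and 47.2 ± 3.6% at the same days. SCN3A ranged from 36.8 to 46.3% over the 12 earlier libraries and from 22.4 to 25.8% at GD90, and SCN2A from 28.04 to 36.6% over the earlier libraries and from 43.5 to 52.7% at GD90, so neither overlapped. SCN8A had 5.30 ± 2.3%, 6.48 ± 2.5% and 11.96 ± 4.5%, SCN1A 18.5 ± 2.3%, 17.6 ± 2.8% and 13.2 ± 1.0%, and SCN9A 4.47 ± 1.1%, 3.65 ± 1.7% and 3.01 ± 0.66%. Leaving out each GD45 library in turn, male replicate 17 included, moved the mean GD45 share of SCN3A between 42.1 and 43.4% and that of SCN2A between 28.5 and 29.1%. A share can be lower without a lower level of the gene itself: the mean of SCN3A was 105 CPM at GD60 and at GD90, while the mean of the alpha subunit sum was 271 and 429 CPM.

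Counts per kilobase divide out the annotated exonic length of a gene but not its uneven coverage. The last exon held a median of 89.7% of the exon counts of SCN1A at GD45 and 17.9% of those of SCN9A. The last exon of SCN9A is listed in overlapping versions of 1489 and 1311 bases, with 0 counts in the latter. The exon counts were 36% of the gene counts for SCN9A and 92% for SCN1A, so these last-exon shares are not directly comparable. The RefSeq 3′ ends of SCN9A (72745706) and SCN8A (17173831) also lie beyond the ends of the counted genes. The orders below are thus of counts per annotated kilobase and may differ from those of transcript levels. The ratio of SCN2A to SCN3A on this scale was 0.56 to 0.66 at GD45, 0.68 to 0.91 at GD60 and 1.58 to 1.93 at GD90, with no overlap between any pair of days. SCN3A was above SCN2A in 6 of 6 libraries at GD45 and in 6 of 6 at GD60, and SCN2A was above SCN3A in 6 of 6 at GD90. In CPM per kilobase the order of the means at GD45 was SCN3A (8.70), SCN2A (5.42), SCN1A (3.78), SCN8A (1.39) and SCN9A (1.18), and the last pair was in this order in 5 of 6 libraries. At GD60 it was SCN3A (12.3), SCN2A (9.57), SCN1A (5.50), SCN8A (2.57) and SCN9A (1.58), in this order in 6 of 6 libraries for each neighboring pair. At GD90 it was SCN2A (21.3), SCN3A (12.2), SCN8A (7.72), SCN1A (6.59) and SCN9A (2.01), where SCN8A was above SCN1A in 4 of 6 libraries. Neighbors in these orders had overlapping ranges except SCN1A and SCN9A at GD90.

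**Figure D3:**
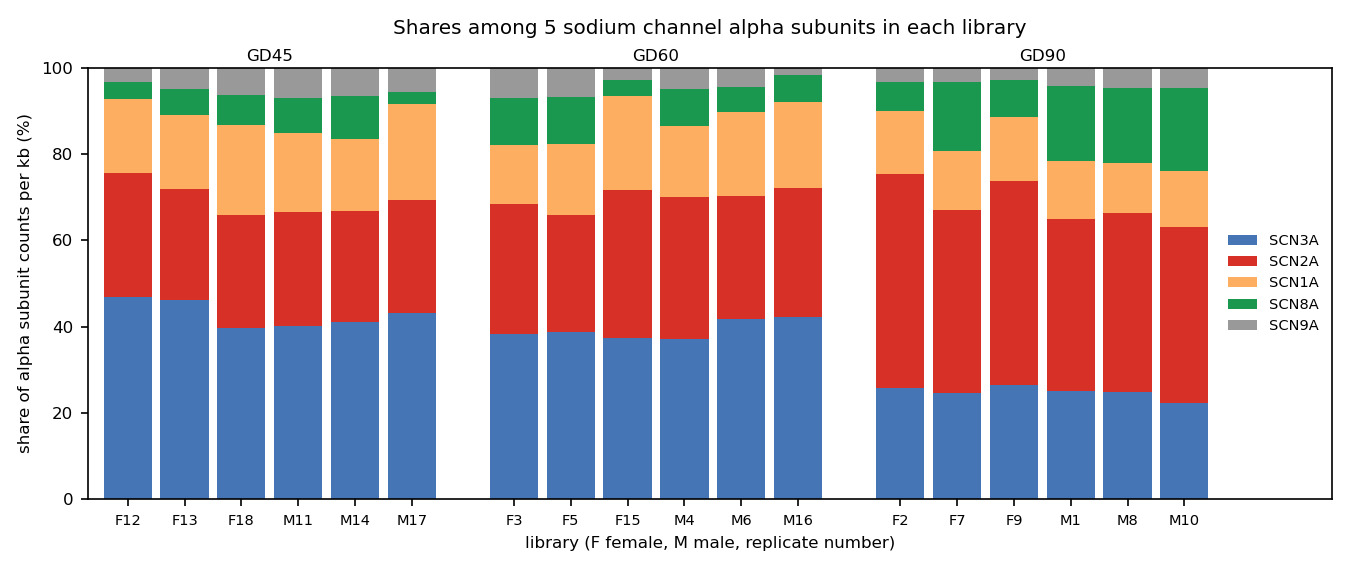
Share of each alpha subunit in the summed counts per kilobase (vertical axis, percent, from 0 to 100), with 1 bar per library, F for female and M for male with the replicate number. The blue share of SCN3A is the largest in all 12 libraries of GD45 and GD60, and the red share of SCN2A is the largest in the 6 libraries of GD90.

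Several alpha subunit genes hold a pair of mutually exclusive exons that code for part of the first voltage-sensing region, an earlier one used in the neonatal form and a later one used in the adult form of the channel. The exon table listed such a pair of 92-base exons for SCN1A, SCN2A, SCN3A and SCN9A, and 1 version only for SCN8A. The pair of SCN3A, in which the second version took the largest share at GD90 among the pairs with counts of both, is shown 5′ to 3′ on the strand of the gene from the RefSeq genome of Sscrofa11.1, with bases that differ between the versions in capitals. The first version is at chr15:71782349-71782440 and the second at chr15:71782166-71782257, both on the − strand.
SCN3A first: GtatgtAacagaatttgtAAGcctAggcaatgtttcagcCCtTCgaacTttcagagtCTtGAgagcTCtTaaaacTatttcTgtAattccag
SCN3A second: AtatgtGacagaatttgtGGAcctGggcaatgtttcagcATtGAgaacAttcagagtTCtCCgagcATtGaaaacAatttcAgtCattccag

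The versions of SCN3A differed at 21 of 92 bases. Counted from 1 at the 5′ end of the exon, A20G and G21A turn the codon AGC of the first version, a codon of serine, into GAC in the second, a codon of aspartate. The exon listed for SCN8A differed from the second SCN3A version at 10 bases and from the first at 20.

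Counts in these exons were few, and those of the second versions of SCN1A, SCN2A and SCN3A were counted mostly at GD90. Over 6 libraries, the first and second SCN2A versions had 7 and 1 counts at GD45, 10 and 3 at GD60 and 16 and 21 at GD90, so that the second made up 12.5%, 23.1% and 56.8% with exact 95% binomial intervals of 0.316 to 52.7%, 5.04 to 53.8% and 39.5 to 72.9%. The SCN3A versions had 4 and 1, 6 and 1, and 1 and 9 counts, and the second made up 90% at GD90 with an interval of 55.5 to 99.7%. In SCN1A they had 1 and 2 counts at GD45, none at GD60 and 0 and 7 at GD90, whereas in SCN9A the first version had 3 counts at GD60 and 5 at GD90 and the second 1 and 0. Summed over the 4 genes, the second version made up 25.0% (interval 7.27 to 52.4%) at GD45, 20.8% (7.13 to 42.2%) at GD60 and 62.7% (49.1 to 75.0%) at GD90. The intervals of GD60 and GD90 did not overlap in the sum, and for SCN2A and SCN3A alone each pair of days overlapped. These intervals cover counting error only, and the counts of a day came from few libraries: 5 libraries for the first and 4 for the second SCN2A version at GD90. The reads, of 150 bases, are longer than these exons of 92 bases, so a spliced read through one can also cover a neighboring exon. How the exon counts treat such reads is not given in the sources used here. Whether the few counts show which version was spliced in was not tested.

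In a test of each exon against the whole of its gene (edgeR diffSpliceDGE, GD90 against GD45), none of the 64 member exons tested was called, beside 1.09% of all 76800 exons. At an unadjusted p under 0.05 there were 10, of which 7 were in SCN2A and 3 in SCN1A, and in each the relative use was higher at GD90. In SCN2A they lay upstream of the last exon, between 71937776 and 71982901, and their log2 changes relative to the gene were 0.84 to 1.78. limma's diffSplice, which sets an exon against the other exons of its gene, called 1 member exon, the last exon of SCN1A (chr15:72529875-72533090). Its relative log2 change was −1.49 (adjusted p = 0.0093), while diffSpliceDGE, which sets it against the whole gene, gave −0.16 (adjusted p = 0.94). These values are not of the same measure. An exon with most of its gene's counts can differ little from the whole gene, so diffSpliceDGE says little about the last exons of SCN1A, SCN2A and SCN8A. The last exon of SCN1A held a median of 89.7% of the exon counts of that gene at GD45 and 73.1% at GD90, that of SCN2A 87.7% and 74.8% and that of SCN8A 68.0% and 56.4%. Over the 2398 comparable genes the median share was 19.4% at GD45, 19.3% at GD60 and 15.5% at GD90, so that last-exon coverage was lower at GD90 in genes in general as well, and its part in the exon values was not tested. Genes whose last exon is listed in overlapping versions, as in SCN3A, were kept among the 2398 and can have understated shares. The height of this median is therefore not directly comparable with the shares of single members.

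Coverage of the last exon differed between libraries of the same day, and its part in the levels was not tested. At GD45 the library with the highest share, male replicate 17, had the lowest CPM of SCN1A, SCN2A, SCN3A, SCN8A and SCN9A. At GD90 the 3 males had last-exon shares of 14.1%, 14.8% and 15.1% and the 3 females of 15.9%, 19.2% and 20.1%. The males were above the females for all 5 alpha subunits, and how many of all genes part the sexes in this way was not counted. At GD60 the library with the highest share, female replicate 15 (22.5%), had the highest SCN1A of its day (58.1 CPM) and the lowest SCN8A (8.41 CPM). With the last-exon share as a covariate, 5 of 6 members passed from GD45 to GD90, beside 8940 of all 16325 genes, and the log2 fold changes were 1.80 for SCN2A, 1.49 for SCN8A, 0.74 for SCN1A, 0.26 for SCN3A (adjusted p = 0.045) and 2.31 for SCN2B. With the counts outside the last exon alone, SCN1A, SCN2A, SCN3A, SCN8A and SCN9A were all called from GD45 to GD90, at log2 fold changes of 1.71, 2.52, 1.27, 2.54 and 0.84, beside 6032 of 13651 genes. From GD45 to GD60 none of the 5 was called by edgeR on these fewer counts, beside 1041 of 13651 genes, although the log2 fold changes of SCN1A (0.76), SCN2A (1.04) and SCN3A (0.90) were larger than those of the whole genes.

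**Figure D4:**
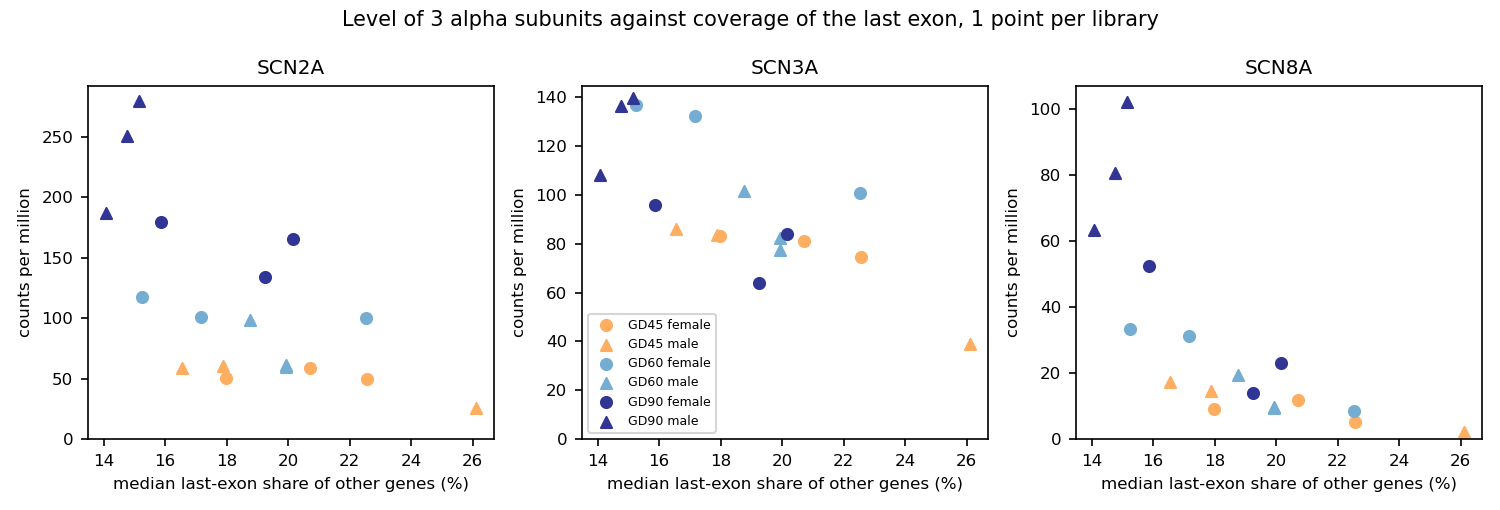
CPM of SCN2A, SCN3A and SCN8A (vertical axes, from 0) against the median percent of exon counts in the last exon over 2398 other genes (horizontal axis), with 1 point per library colored by gestation day, circles for females and triangles for males. Male GD45 replicate 17 is the point at 26.1%, and the 3 GD90 males lie at the left with the highest SCN2A and SCN8A levels.

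Female and male fetuses were compared at each day to ask whether the subunits differ by sex. At GD90 SCN2A measured 134, 180 and 165 CPM in females and 187, 250 and 279 CPM in males, and SCN3A 63.9, 95.8 and 84.2 CPM in females and 108, 136 and 140 CPM in males. None of the 6 members was called by edgeR at GD90, beside 0.098% of all genes. All females lay below all males for SCN1A, SCN2A, SCN3A, SCN8A and SCN9A, and how many of all genes part the sexes in this way was not counted. The log2 differences, male minus female, were 0.51 ± 0.19 for SCN1A, 0.52 ± 0.22 for SCN2A, 0.60 ± 0.19 for SCN3A, 1.41 ± 0.57 for SCN8A and 1.23 ± 0.47 for SCN9A, all with an adjusted p of 0.35. Those 5 had an unadjusted p under 0.05, and DESeq2 called 0 as well. With the last-exon share as a covariate the differences were 0.43, 0.32, 0.35, 0.55 and 0.66 for the same 5 genes in that order.

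At GD60 every female was above every male for SCN2A, at 117, 101.02 and 100.4 CPM in females and 98.1, 61.3 and 59.8 CPM in males. The log2 differences were −0.50 ± 0.22 for SCN2A, −0.45 ± 0.19 for SCN3A and −1.08 ± 0.47 for SCN9A, and none of the 6 members was called by edgeR (adjusted p from 0.78 to 0.80), beside 0.098% of all genes. An unadjusted p under 0.05 was found for those 3, and DESeq2 called 0. At GD45 none was called either, beside 0.0919% of all genes, with 0 at an unadjusted p under 0.05 and 0 by DESeq2.

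Within males all 6 members rose from GD60 to GD90, beside 34.5% of all genes, while within females 1 rose (SCN2A), beside 27.1%. SCN8A rose 6.34-fold in males (adjusted p = 0.0029), and in females its log2 fold change was 0.40 ± 0.57 (adjusted p = 0.64). SCN3A rose 1.46-fold in males (adjusted p = 0.037), and in females its log2 fold change was −0.51 ± 0.19 (adjusted p = 0.057). In males the calls of SCN3A and SCN9A were lost without male GD60 replicate 6 or 16 or without male GD90 replicate 8 or 10, at adjusted p of 0.114 to 0.123 and 0.0544 to 0.086. With the last-exon share as a covariate 3 members were called in males (SCN1A, SCN2A and SCN8A) and 3 in females (SCN2A and SCN2B higher, SCN3A lower), beside 4446 of all 16325 genes in males and 6274 in females, where the fit without it called 5634 and 4426. The change of SCN8A in males was then 1.39 on the log2 scale (adjusted p = 0.0046), against 2.66 without the covariate. In females the call of SCN2A was lost without female GD60 replicate 3, 5 or 15 or without female GD90 replicate 7 or 9 (adjusted p from 0.0504 to 0.0959), and SCN3A was called lower without male GD45 replicate 14 or 17, female GD60 replicate 15 or female GD90 replicate 7 (adjusted p from 0.00926 to 0.0473). From GD45 to GD60, 2 members rose in females (SCN1A and SCN2A, beside 7.22% of all genes), and SCN1A was no longer called without female GD45 replicate 12 or 13 or without female GD60 replicate 5 or 15 (adjusted p from 0.0837 to 0.153). SCN3A was called as well without male GD45 replicate 14 or 17, female GD60 replicate 15 or female GD90 replicate 2 (adjusted p from 0.00628 to 0.0474), and SCN8A without male GD45 replicate 17 (adjusted p = 0.0486). In males none was called by edgeR from GD45 to GD60, beside 5.61% of all genes, with 1 at an unadjusted p under 0.05 (SCN2A) and 0 by DESeq2.

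The difference between the sexes in the change from GD60 to GD90 was itself tested as an interaction. None of the 6 members was called by edgeR, beside 0% of all genes, though 5 had an unadjusted p under 0.05. DESeq2 called 2 (SCN3A at an adjusted p of 0.027 and SCN9A at 0.039), and its calls over all genes were not counted. The interaction was 1.05 ± 0.27 on the log2 scale for SCN3A (adjusted p = 0.18), 1.03 ± 0.30 for SCN2A, 0.91 ± 0.27 for SCN1A, 2.26 ± 0.81 for SCN8A and 2.31 ± 0.67 for SCN9A, each a larger rise in males. Without male GD45 replicate 17, a library that is in neither day compared, the values hardly moved (1.05, 1.02, 0.90, 2.26 and 2.30), yet all 5 passed at adjusted p of 0.018 to 0.034, and 2209 of 16631 genes were called. With the last-exon share as a covariate the values were 0.72, 0.77, 0.82, 0.91 and 1.45, with adjusted p from 0.27 to 0.51. For the change from GD45 to GD60 no member was called, beside 0% of all genes, with 1 at an unadjusted p under 0.05 (SCN9A, −1.44 ± 0.67) and 0 by DESeq2.

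SCN2B, a beta subunit joined to the alpha subunit by a disulfide bond, rose 10.2-fold from GD45 to GD90 at low counts. It lies on chromosome 9 at 45484998-45498465 on the − strand. Its level was 0, 0.51 and 1.04 CPM (lowest, median and highest) at GD45, 0.36, 1.02 and 2.08 CPM at GD60 and 1.82, 5.95 and 7.74 CPM at GD90, and the GD45 and GD90 libraries did not overlap. The library at 0 was male GD45 replicate 17, where 3 counts, the most a count of 0 allows, would be 0.198 CPM. The log2 fold change was 3.34 ± 0.56 from GD45 to GD90 (adjusted p = 8.4e-05) and 2.30 ± 0.52 from GD60 to GD90 (adjusted p = 0.0019). Without male GD45 replicate 17 the first was 3.09, and with the last-exon share as a covariate it was 2.31 (adjusted p = 0.00012). Of the 4597 exonic bases of SCN2B, 4318 are also exonic in JAML on the same strand and 279 are its own, and the exon table gave SCN2B 0 counts.

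The unnamed gene at SCN4B, which encodes in RefSeq the other disulfide-linked beta subunit, rose 3.62-fold from GD45 to GD90. It lies on chromosome 9 at 45451477-45479773 on the − strand, beside SCN2B, and it had 1164 counts in all. Its level was 0.86, 1.90 and 2.97 CPM (lowest, median and highest) at GD45, 2.08, 2.80 and 3.50 CPM at GD60 and 4.48, 7.14 and 8.36 CPM at GD90, and all GD90 libraries were above all earlier ones. The log2 fold change was 1.86 ± 0.24 from GD45 to GD90 (adjusted p = 4.5e-06) and 1.33 ± 0.23 from GD60 to GD90 (adjusted p = 0.00020), with 0.53 ± 0.24 from GD45 to GD60 (adjusted p = 0.15). Leaving out male GD45 replicate 17, the change from GD45 to GD90 was 1.71 (adjusted p = 3.7e-06). The sexes overlapped at GD90, with females at 4.48, 7.15 and 7.13 CPM and males at 8.36, 8.24 and 6.75 CPM.

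SCN3B, a beta subunit bound without a disulfide bond, could not be read from its own row. The row (chromosome 9, 50508198-50524628, − strand) held 1 count in male GD45 replicate 11 and 0 in the other 17 libraries, where 3 counts would be 0.152 to 0.198 CPM. Of its 4872 exonic bases, 4533 are also exonic in the gene the annotation names ZNF202, a zinc finger gene that runs into SCN3B on the same strand in Ensembl and ends before it in RefSeq. The exons listed under ZNF202 were sorted into those inside RefSeq SCN3B, those inside RefSeq ZNF202 and a few in neither, with 9, 10 and 0 counts at GD45, GD60 and GD90. The exons inside RefSeq SCN3B had 785 counts at GD45, 1428 at GD60 and 2500 at GD90, a mean of 7.74 ± 4.6, 14.7 ± 8.6 and 26.2 ± 13 CPM (SD, n = 6). All of these counts were in a 4399-base exon at the 3′ end, with 4004 bases also exonic in Ensembl SCN3B, and an 80-base exon, with 0 such bases. The exons of 139, 226 and 164 bases lie wholly within Ensembl SCN3B exons and held 0 counts. Their 0 counts thus do not show that these exons were skipped. Reads in bases listed under both genes may be missing, so the CPM of the RefSeq SCN3B exons may be a partial count. The exons inside RefSeq ZNF202 had 1015, 885 and 509 counts, a mean of 9.99 ± 1.6, 8.77 ± 1.0 and 5.25 ± 0.84 CPM. The level in the RefSeq SCN3B exons was 1.98, 7.33 and 14.2 CPM (lowest, median and highest) at GD45 and 7.37, 27.5 and 40.4 CPM at GD90, with overlap, and in the RefSeq ZNF202 exons every GD90 library was below every earlier library. This split was chosen after the values were seen and is a description with no test. The row named ZNF202 had a mean of 28.9 CPM at GD45 and 39.5 CPM at GD90. Of the exonic bases of SCN3B, 1575 are also exonic in GRAMD1B on the other strand, and the gene from which the reads in these exons came was not tested.

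**Figure D5:**
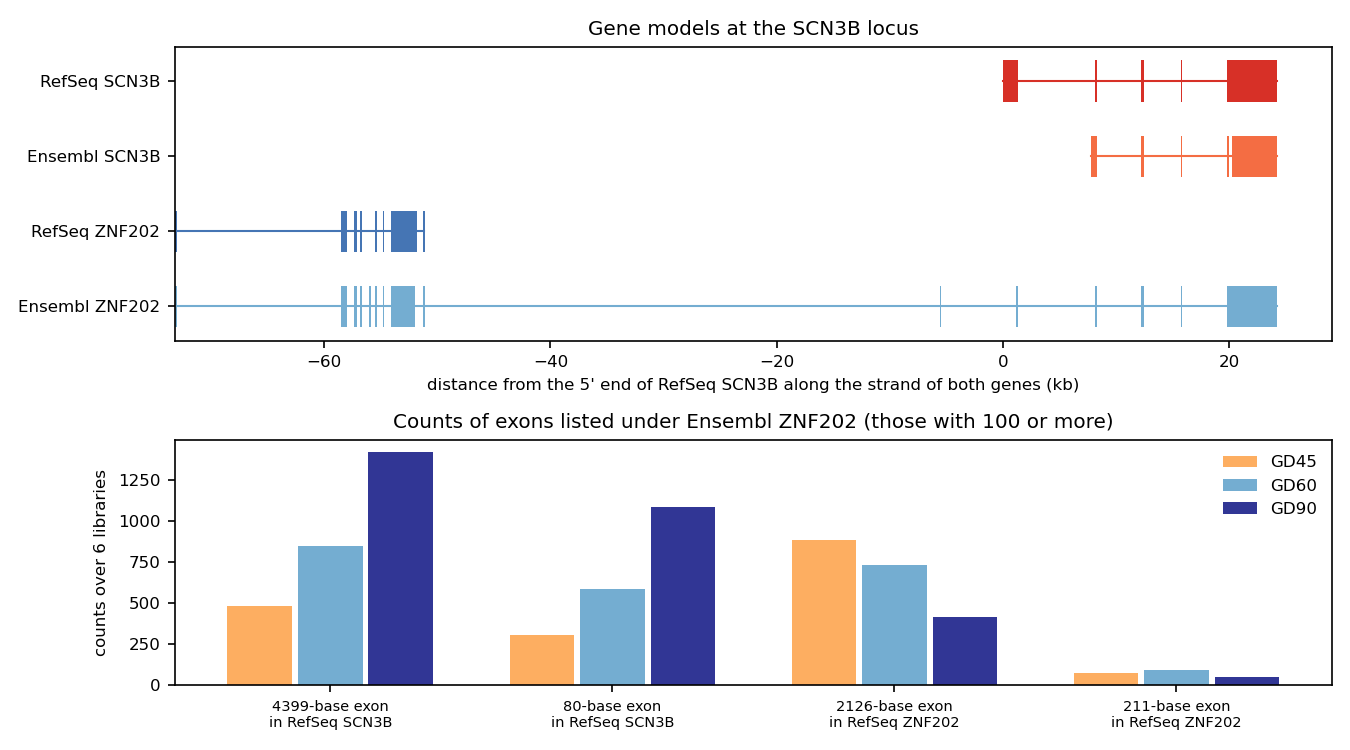
The upper panel maps the exons (boxes) of the RefSeq and Ensembl models of SCN3B and ZNF202 against the distance in kilobases from the 5′ end of RefSeq SCN3B, along the strand of both genes. The lower panel gives the counts over 6 libraries of a day (bars from 0) of the 4 exons listed under ZNF202 with 100 or more counts: the 4399-base and 80-base exons inside SCN3B hold more counts at GD90 (1418 and 1082) than at GD45 (481 and 304), and the 2126-base exon of ZNF202 holds fewer (415 against 880).

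Sodium channel genes outside the members were also read. NALCN, the sodium leak channel, measured 38.8, 50.9 and 90.2 CPM (means of 6 libraries) at GD45, GD60 and GD90 and rose 2.38-fold from GD45 to GD90 (adjusted p = 1.1e-06). SCN7A (0.63 and 0.93 CPM at GD45 and GD90) and SCN11A (0.76 and 0.84 CPM) were not called between these days, with adjusted p of 0.070 and 0.705. From GD60 to GD90 SCN7A was called higher, 2.08-fold from 0.48 CPM (adjusted p = 0.0082), and SCN11A was not called (adjusted p = 0.090). SCN4A, the skeletal muscle alpha subunit, and SCN10A, of sensory neurons, had 12 and 1 counts at GD90 and did not pass the filter on low counts.

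Genes for proteins that hold sodium channels in place were read beside the members. Of 10 anchors of the axon initial segment and node tested (11 listed), 9 rose and 1 fell from GD45 to GD90, with a median log2 fold change of 1.10, beside 57.5% of all genes called and 28.3% called higher. CNTNAP1, an axonal protein beside the nodes, rose 7.18-fold (2.84 ± 0.11 on the log2 scale), its partner CNTN1 rose 4.70-fold, the spectrins SPTBN1 and SPTBN4, of which the latter lies at initial segments and nodes, rose 2.79-fold and 2.59-fold, and CNTN2, an axonal adhesion protein, fell by 0.65 on the log2 scale (adjusted p = 0.00042). From GD45 to GD60, 7 of the 10 rose and 0 fell, and from GD60 to GD90, 6 rose and 1 fell, beside 9.35% and 21.4% of all genes called higher. Oligodendrocyte markers, of the cells that myelinate axons, summed to between 18.6 and 42.7 CPM at GD45 and between 1721 and 2968 CPM at GD90, and their part in these values was not tested. Of 3 FGF homologous factors tested, which bind the tail of the alpha subunit, FGF12 (0.63 ± 0.10) and FGF13 (0.76 ± 0.09) rose and FGF14 measured −0.11 ± 0.09 (adjusted p = 0.29). Of 7 regulators tested, 5 rose and 1 fell from GD45 to GD90, beside the same 28.3% of all genes called higher: the calmodulin gene CALM3 rose 2.41-fold, PTPRZ1, a receptor phosphatase, 1.97-fold, and BACE1, a protease that cuts beta subunits, 1.95-fold, whereas NEDD4L, a ubiquitin ligase of sodium channels, fell by 0.42 on the log2 scale (adjusted p = 0.00021).

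The genes whose log2 CPM most resembled that of each member over the 18 libraries are given by Pearson's r as a description, since the libraries share gestation day and coverage. For SCN2A they were ANK2 (r = 0.990), an ankyrin, ADAM23 (0.989) and PRICKLE2 (0.987). For SCN8A they were NTRK2 (0.988), the receptor of the growth factor BDNF, LSM11 (0.986) and SORT1 (0.985). For SCN3A they were RGS17 (0.957), CSMD3 and TENM3 (both 0.950), and for SCN1A they included FAM184A (0.936) and ZFYVE9 (0.935). SCN9A was most like THSD7A (0.928), VPS13C (0.921) and MAP3K2 (0.911), SCN2B most like C11orf42 (0.968), CACNA1I (0.964) and KCNJ18 (0.961), and the unnamed gene at SCN4B most like SLC9A3 (0.963), CSRNP1 (0.961) and SLCO3A1 (0.960). Among the members themselves, SCN2B and SCN8A had the highest r (0.945) and SCN9A and the unnamed gene at SCN4B the lowest (0.408).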

How the data were processed

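RNA-seq libraries of 18 fetal brains were sequenced as paired reads of 150 bases. Per the methods, the authors used FastQC, Trimmomatic, HISAT2 against Sscrofa11.1 and featureCounts, and deposited raw read counts per gene and per exon. The strand setting and the treatment of reads in overlapping genes are not given in the sources used here. Counts of 2 runs were summed for 4 libraries. CPM was computed from each library's total gene counts, from 15118843 to 19729783. Genes passing filterByExpr (16325) were fitted with edgeR 4.0.16 in R 4.3.3 (TMM, 6 groups of sex and day, quasi-likelihood F test, Benjamini-Hochberg over all genes, threshold 0.05). Exon use was tested with diffSpliceDGE on exons kept in 1 copy per coordinate. DESeq2 1.42.0, limma 3.58.1 and other settings were alternatives. The scripts were tested on simulated data.

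The members and lists were chosen with earlier results of these data known. All 8 members are named, with other sodium channel genes, up to 4 genes called with the largest change per partner list, and the 3 most similar genes per member. Replicates are separate fetuses. RefSeq models and sequences are of Sscrofa11.1. Protein sequences were not used here. Some genes and sequences that these rules would name are not reported here.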

Additional observations from a re-analysis of the deposited data

Results flagged for a closer look

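In male GD45 replicate 17, SCN2A (26.0 CPM) and SCN3A (39.2 CPM) lay far below the other 5 libraries of that day. The gap to the next library was 0.742 of the range of log2 CPM of the 6 libraries for SCN2A and 0.787 for SCN3A. Of 21 groups of 6 libraries examined in this way, 2 were beyond the critical value, and chance alone gives about 1 in 20. The same library had the highest last-exon share of the series (26.1%), and the part of that in the values was not tested.

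The exons listed under ZNF202 that lie inside RefSeq SCN3B held 4713 counts over the 18 libraries, while the row named SCN3B held 1. These counts were in no test of a member.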

How the results depend on the processing

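Leaving out each library in turn gave 2 to 3 members called from GD45 to GD60, 3 to 4 from GD60 to GD90 and 5 to 5 from GD45 to GD90, 1 to 4 and 0 to 0 from GD45 to GD60 in females and males, 0 to 2 and 4 to 6 from GD60 to GD90 in females and males, 0 to 0 for each sex comparison and for the interaction from GD45 to GD60, and 0 to 5 for the interaction from GD60 to GD90. The 5 came without male GD45 replicate 17, where 2209 of 16631 genes were called. For the other comparisons the calls over all genes in these fits are not given here, so their ranges cannot be set against genes in general. For the member exons the range was 0 to 2, with 2 without male GD45 replicate 14 or female GD90 replicate 2. The shares at GD90 ranged from 46.1 to 47.9% for SCN2A.

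Counts outside the last exon gave 0 members called from GD45 to GD60 in both sexes and in females and 0 from GD60 to GD90 in females, where fewer counts remained and fewer genes were called in all (from GD45 to GD60 in females 181 of 13651, against 1178 of 16325), while the log2 fold changes in females from GD45 to GD60 were 1.32 for SCN1A and 1.73 for SCN2A. With the last-exon share as a covariate, 1 was called from GD45 to GD60 in males, beside 1790 of 16325 genes. From GD60 to GD90 this fit called 3 in each sex, beside 4446 of 16325 genes in males and 6274 in females. Both alternatives were added after the data were seen. From GD60 to GD90 in females, 2 were called by a likelihood ratio test, by DESeq2, with the gene length trend removed, with only the groups compared and without the GD45 litter of 8, and 0 without TMM factors. From GD45 to GD60, 1 was called in females without TMM factors or from the exon table, and 1 in males with the length trend removed. Between the sexes at GD90, 2 were called with only the groups compared. The interaction from GD60 to GD90 gave 1 by a likelihood ratio test, 2 by DESeq2 and 4 with only the groups compared. Without the GD45 litter of 8 it gave 5, beside 2104 of 16578 genes, against 0 of 16325 genes in the main fit. limma called 1 member exon. Where no number over all genes stands beside a count, the count cannot be set against genes in general. The cause of these differences was not tested.

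In the exon table, which holds no counts of the last exon of SCN3A, the alpha shares at GD45, GD60 and GD90 were 48.3%, 49.7% and 58.6% for SCN2A, 31.3%, 27.3% and 16.5% for SCN1A and 9.26%, 11.7% and 8.70% for SCN3A. SCN8A had 8.61% and 9.26% at GD45 and GD60, and SCN9A 2.53% at GD45 and 1.66% at GD90. Exon counts as a percent of gene counts were 92% for SCN1A, 89.9% for SCN2A and 87.6% for SCN8A, but 20.8% for SCN3A and 36% for SCN9A. The exon-table shares of SCN3A and SCN9A are therefore low beside those of the gene table. Per kilobase, SCN2A had 26.5% at GD45 and SCN9A 5.65% at GD45 and 3.84% at GD90.

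No called value changed sign. Of 2370 values of single members and the unnamed gene at SCN4B under alternatives, 49 changed sign without being called in either fit, 18 of them between the sexes at GD45 and 9 for SCN3A from GD60 to GD90, while 48 gained and 40 lost the call. Litters were inferred from day and litter size. With litter as a replicate block, 0 members were called between the sexes at each day. With littermates summed, 3, 3 and 5 were called from GD45 to GD60, from GD60 to GD90 and from GD45 to GD90. Calls over all genes in the fit with littermates summed were not counted, so these 3 counts cannot be set against genes in general. The correlation of littermates' deviations ranged from −0.09 to 0.42, with a median of −0.13 between non-littermates of the same day and other sex.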

Other observations

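Markers of other brain cells differed between days as well. From GD45 to GD90 all 4 oligodendrocyte markers rose, with a median log2 fold change of 6.46: MBP, a myelin protein, measured 19.1 ± 5.3 CPM (SD, n = 6) at GD45, 31.6 ± 8.7 CPM at GD60 and 1213 ± 311 CPM at GD90. All 3 markers of oligodendrocyte precursors (median 1.57), all 4 of astrocytes (2.92) and all 3 of microglia (0.71) rose, and all 5 neural progenitor markers tested fell (median −1.51). Of the neuron markers 5 of 7 rose, with RBFOX3 at 42.4 ± 10.9, 67.7 ± 2.9 and 108.5 ± 13.2 CPM, while MAP2 (adjusted p = 0.054) and TUBB3 (adjusted p = 0.086) were not called. Of 3 endothelial markers 1 rose, 2 of 3 skeletal muscle markers tested rose, and the 4 sensory ganglion and 3 hindbrain and spinal cord markers tested fell. Of all genes, 57.5% were called between these days.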
